A study of Mus musculus with 8 samples.

Results

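The 10 genes described here encode the enzymes that make serine and pass its carbon to folate, the transcription factor ATF4 and a set of its targets. They were Phgdh, Psat1, Psph, Shmt1, Shmt2, Mthfd2, Asns, Trib3, Atf4 and Ddit3, chosen by symbol from 42649 genes with the diet difference in these libraries already known, so their diet differences are given as a description and not as a test. The libraries were poly(A) RNA of tumour-associated macrophages from C57BL/6 mice, an immunocompetent inbred strain, with no engineered allele stated. There were 4 libraries of mice given HFD, a high-fat diet with 60% of its energy as fat, and 4 of mice given CD, a control diet with 10%. Both groups ate their diet for 6 weeks and then received MC38, a line of mouse colon carcinoma, in the spleen to seed the liver. Both groups were sampled 19 days later, when cells positive for CD45, CD11b and F4/80 were sorted from the liver metastases. The labels used here give neither age nor sex.

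Cells make serine from a glycolytic intermediate in a chain of reactions. PHGDH oxidises phosphoglycerate and commits it to the pathway, PSAT1 adds an amino group, and PSPH removes the phosphate. SHMT1 in the cytosol and SHMT2 in mitochondria then split serine into glycine and a carbon unit carried by folate, which MTHFD2 oxidises in mitochondria for purine synthesis. When kinases phosphorylate the initiation factor eIF2, general translation slows but ATF4 protein is made from existing mRNA, so the Atf4 transcript level need not follow ATF4 activity. ATF4 pairs with C/EBP proteins on a composite DNA element and activates the serine enzymes, the asparagine synthetase gene Asns, the pseudokinase gene Trib3, which feeds back on ATF4, and Ddit3, which encodes CHOP.

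The core of that composite element, TGATGNAA on either strand (TTNCATCA on the other), was looked up in RefSeq promoter windows of GRCm38.p6, from 250 bases before to 50 after each start. All 10 genes had a window, and Psat1 had a pair of them. The Psat1 windows lie at RefSeq starts 15925059 and 15924622 and do not reach the deposited Psat1 gene start at 15947337. The core was found in 2 of the 10 genes, Asns and Trib3, and in 3.97% of the 32851 windows of all genes. The Asns match begins 23 bases before the RefSeq start at 7693209, but inside the deposited gene, which begins upstream at 7693254. The Trib3 match begins 14 bases after the RefSeq start at 152344060, and before the deposited gene start at 152344032. The matches are shown with their flanks, and the bases before the start of Phgdh and Trib3 are shown because these were the genes whose diets did not overlap. Capitals mark the matched core, and each sequence is written 5′ to 3′ on the minus strand, which carries all of these genes. For Trib3 the 250 bases before the RefSeq start are given. The deposited Phgdh gene begins upstream of its RefSeq start, so for Phgdh the bases begin before the deposited start at 98339990 and leave out those from there to the RefSeq start at 98339969. No match says only that these letters are not in the window.
Asns, chr6:7693214-7693243: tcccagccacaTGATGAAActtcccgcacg
Trib3, chr2:152344028-152344057: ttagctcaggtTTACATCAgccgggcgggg
Trib3, chr2:152344061-152344310: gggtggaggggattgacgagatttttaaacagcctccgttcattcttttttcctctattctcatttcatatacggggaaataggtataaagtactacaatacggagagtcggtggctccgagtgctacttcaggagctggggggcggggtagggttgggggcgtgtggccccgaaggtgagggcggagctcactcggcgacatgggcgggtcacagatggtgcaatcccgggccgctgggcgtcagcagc
Phgdh, chr3:98339991-98340219: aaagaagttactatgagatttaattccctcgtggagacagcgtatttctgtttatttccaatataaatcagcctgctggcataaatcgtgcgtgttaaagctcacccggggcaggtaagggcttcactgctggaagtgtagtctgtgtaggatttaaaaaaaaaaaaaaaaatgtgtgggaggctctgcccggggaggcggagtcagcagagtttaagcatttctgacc

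Total counts were 44997865 to 55717378 in HFD and 37180157 to 52008248 in CD libraries. Levels are CPM, which scale counts to a common library size after adjustment by the trimmed mean of M values (TMM), and FPKM, the authors' own length-scaled value, serves to compare one gene with another. The other 6 libraries differed clearly from CD replicates 3 and 4. Those replicates had the lowest total counts, 43857205 and 37180157, but the most genes with a count. Such genes numbered 34495 and 33449 in CD replicates 3 and 4, against 21571 to 24556 in the other 6 libraries. The summed level of 16 neutrophil markers was 490 to 7437 CPM in HFD, 1912 and 1575 CPM in CD replicates 1 and 2, and 108457 and 110145 CPM in CD replicates 3 and 4. Most of the sum in CD replicates 3 and 4 was S100a8, at 71829 and 73616 CPM. Not all of the markers followed it. Camp was lower in CD replicates 3 and 4 (4.65 and 5.02 CPM) than in CD replicates 1 and 2 (12.7 and 14.4 CPM). Ltf and Mpo overlapped between these CD replicates, and the other markers were higher in CD replicates 3 and 4. None of the 16 was without counts in all libraries. The sort markers had counts in every library. Adgre1, which encodes F4/80, was at 617, 198, 368 and 682 CPM in HFD replicates 1 to 4, against 209, 231, 100 and 93.4 CPM in CD replicates 1 to 4. Ptprc, which encodes CD45, was at 45.6, 74.7, 91.0 and 101 CPM in HFD, against 88.5, 70.3, 163 and 136 CPM in CD, in the same order. Itgam, which encodes CD11b, ran from 40.3 to 142 CPM in HFD and from 53.6 to 141 CPM in CD. The 3 sort markers thus did not share a direction between the diets. In bulk RNA a change in the number of cells of a type and a change in RNA per cell cannot be told apart.

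Of the 10 genes, all of which passed the filter on low counts, Phgdh and Trib3 were higher in each HFD library than in each CD library, and for the other 8 the diets overlapped. None of the 10 was lower in all HFD libraries. Over all genes tested, the diets separated with HFD above for 3.57% and with HFD below for 4.80%. Past an adjusted p of 0.05 in edgeR stood 0 of the 10 genes, where 0.00576% of all genes tested passed. Without adjustment 2 were higher at p under 0.05, Phgdh and Trib3, as were 5.31% of all genes. DESeq2 called the same 2 genes higher, where it called 0.823% of all genes higher, and limma on log2(FPKM + 1) called 0, where it called 0.0% of all genes higher. With no filter on low counts edgeR called Phgdh alone, where it called 0.279% of all genes higher and 0.694% lower. With limma on log2(FPKM + 0.1) 0 of the 10 were called, where 0.023% of all genes were called lower, and with CD replicate 1 left out 0 were called, where 0.00537% were called lower. Adding the division of replicate numbers (1 and 2 against 3 and 4) to the model gave calls for Phgdh and Trib3, where 1.03% of all genes were called higher and 1.02% lower. Within replicates 3 and 4 alone Phgdh, Trib3, Shmt2 and Ddit3 were called, where 11.5% of all genes were called higher and 16.5% lower. The choice of genes used this comparison, so nothing is read from these counts. The median log2 fold change of the 10 genes was 0.25, beside 0.01 for all genes tested, with 8 above 0 and 2 below.

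**Figure D1:**
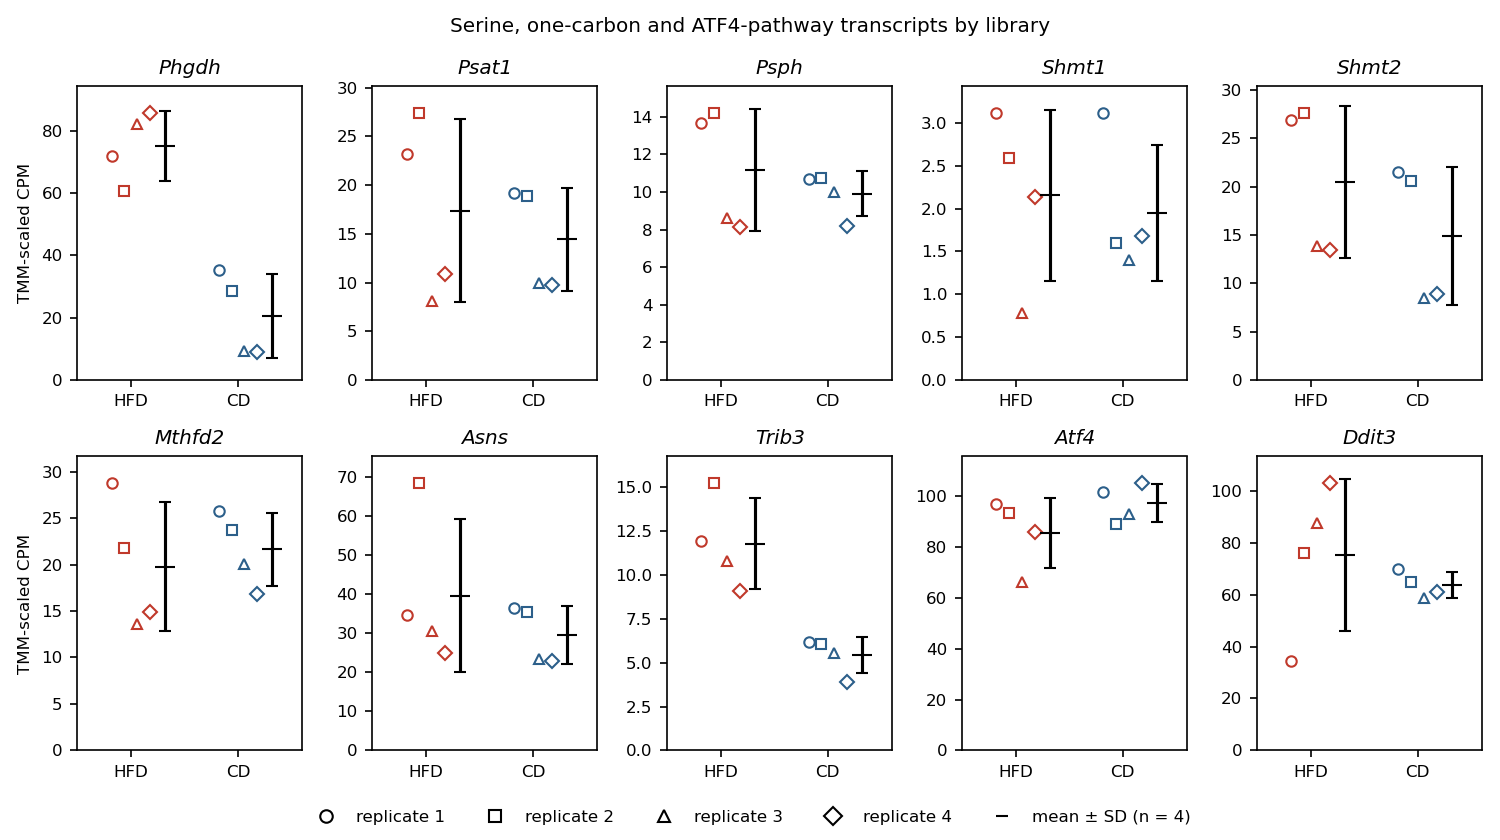
TMM-scaled CPM (vertical axes from 0) of the 10 genes in each HFD and CD library. Symbols mark the replicate number and the bar is the mean ± SD of 4 libraries. For Phgdh and Trib3 the HFD points all sit above the CD points, and for the other 8 genes they overlap.

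Phgdh (ENSMUSG00000053398, chromosome 3, 98313170 to 98339990, minus strand), which encodes the committing enzyme of serine synthesis, had the largest difference of the 10 genes. It was at 72.0, 60.6, 82.2 and 85.8 CPM in HFD replicates 1 to 4, against 35.2, 28.6, 9.29 and 8.84 CPM in CD replicates 1 to 4. The HFD libraries lay close together, while CD replicates 3 and 4 were far below CD replicates 1 and 2. Phgdh averaged 75.2 ± 11.3 CPM in HFD and 20.5 ± 13.5 CPM in CD (SD, n = 4 each), a log2 fold change of 1.87 ± 0.46 (SE, edgeR). Counts ran from 243 to 6831 per library, and the processed pseudogene Phgdh-ps1 held at most 4.

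The diet difference of Phgdh is also given on each side of a division of the replicate numbers, 1 and 2 against 3 and 4, that was made after CD replicates 3 and 4 had been seen to stand apart. The gene and the division were thus both picked with these values known, and what follows is a description with no test. Among replicates 1 and 2 the log2 fold change was 1.06 ± 0.26 (SE), and among replicates 3 and 4 it was 3.30 ± 0.20 (SE), with 2 libraries per diet on each side. The larger value on the side of replicates 3 and 4 went with the low Phgdh level of CD replicates 3 and 4, while the HFD levels of both sides lay close together. With CD replicates 3 and 4 both left out, Phgdh had a log2 fold change of 1.23 ± 0.31 (SE). Each HFD library then still lay above each CD library. The low Phgdh libraries, CD replicates 3 and 4, were those with the high neutrophil marker sums and the most genes with a count. The part of either trait in the Phgdh difference was not tested.

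Psat1 (ENSMUSG00000024640, chromosome 19, 15904678 to 15947337, minus strand), the aminotransferase that follows PHGDH, went with replicate number more than with diet. It was at 23.2, 27.4, 8.07 and 10.9 CPM in HFD replicates 1 to 4, against 19.2, 18.9, 9.99 and 9.71 CPM in CD replicates 1 to 4. Replicates 1 and 2 were high and replicates 3 and 4 low under both diets. The log2 fold change with diet was 0.27 ± 0.43 (SE), smaller than its error.

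Psph (ENSMUSG00000029446, chromosome 5, 129765558 to 129787449, minus strand), the phosphatase that releases serine, had the same order with a smaller range. It was at 13.7, 14.2, 8.59 and 8.12 CPM in HFD replicates 1 to 4, against 10.7, 10.7, 9.99 and 8.19 CPM in CD replicates 1 to 4. Its log2 fold change was 0.17 ± 0.27 (SE). Psph shares 452 bases with Cct6a on the other strand, and the library protocol describes no strand mark, so reads from that stretch cannot be told apart. Cct6a held up to 517% of the Psph count of a library.

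The enzymes of the chain did not hold 1 ratio across libraries. The ratio of Phgdh to Psat1 FPKM within a library, which no scaling between libraries can alter, was 5.33, 3.79, 17.6 and 13.6 in HFD replicates 1 to 4, against 3.15, 2.60, 1.59 and 1.57 in CD replicates 1 to 4. The ratio was higher in each HFD library than in each CD library, and the highest values were in HFD replicates 3 and 4, where Psat1 was low and Phgdh was not. The ratio of Psat1 to Psph FPKM ran from 0.954 to 1.96 in HFD and from 1.02 to 1.82 in CD, which overlapped. By FPKM, Phgdh ranked 2 to 4 among the 10 genes in HFD libraries and 3 to 5 in CD libraries, while Psat1 ranked 7 to 9 in HFD and 7 to 8 in CD.

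**Figure D2:**
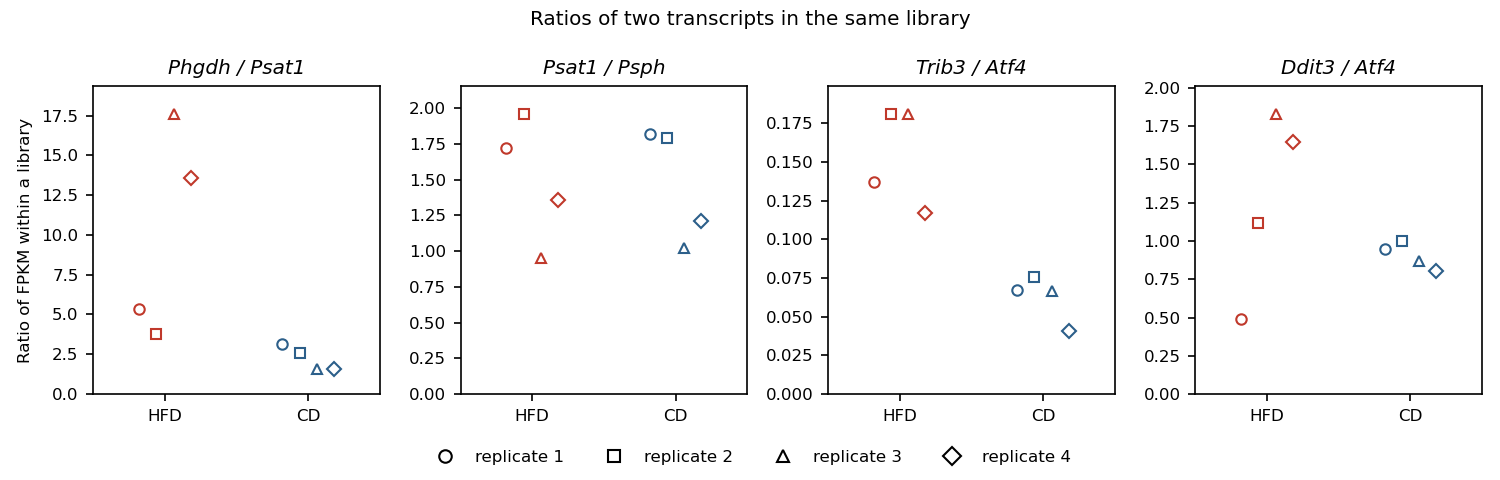
Ratio of FPKM of 2 genes within a library (vertical axes from 0), HFD left and CD right, with symbols for the replicate number. For Phgdh to Psat1 and for Trib3 to Atf4 no HFD point is as low as any CD point, and those of Psat1 to Psph and of Ddit3 to Atf4 overlap.

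Shmt2 (ENSMUSG00000025403, chromosome 10, 127517123 to 127522444, minus strand), the mitochondrial serine hydroxymethyltransferase gene, was at 26.9, 27.7, 13.8 and 13.4 CPM in HFD replicates 1 to 4, against 21.5, 20.6, 8.496 and 8.88 CPM in CD replicates 1 to 4. Each HFD library was above the CD library of the same number, but the diets overlapped because replicates 1 and 2 were high under both. The log2 fold change was 0.46 ± 0.40 (SE) over all libraries, and the same-number differences of log2 CPM ran from 0.32 to 0.70. On the sides of the replicate numbers the log2 fold change was 0.38 ± 0.22 (SE) among replicates 1 and 2 and 0.74 ± 0.21 (SE) among replicates 3 and 4. It was -0.04 ± 0.39 (SE) with CD replicates 3 and 4 left out, a setting that keeps the low HFD replicates 3 and 4.

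Shmt1 (ENSMUSG00000020534, chromosome 11, 60788104 to 60811265, minus strand), the cytosolic counterpart, was the lowest of the 10 genes in all 8 libraries by FPKM. It was at 3.11, 2.59, 0.783 and 2.13 CPM in HFD replicates 1 to 4, against 3.12, 1.598, 1.39 and 1.67 CPM in CD replicates 1 to 4. HFD replicate 3 was the lowest library and CD replicate 1 stood above the other CD libraries. Its log2 fold change was 0.15 ± 0.47 (SE), on 33 to 295 counts per library. Shmt1 shares 184 bases with Smcr8 on the other strand, and reads from that stretch cannot be told apart. Smcr8 held up to 712% of the Shmt1 count of a library. Shmt2 exceeded Shmt1 by 8.08 to 22.0 times in HFD and by 6.76 to 16.4 times in CD, as ratios of FPKM.

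Mthfd2 (ENSMUSG00000005667, chromosome 6, 83305691 to 83317606, minus strand), the mitochondrial folate dehydrogenase gene, showed no diet difference beyond its error. It was at 28.8, 21.8, 13.6 and 14.9 CPM in HFD replicates 1 to 4, against 25.8, 23.8, 20.1 and 16.9 CPM in CD replicates 1 to 4. Under both diets replicates 1 and 2 lay above replicates 3 and 4, and the spread was wider in HFD. The log2 fold change was -0.13 ± 0.29 (SE), and it was above 0 in 8 of 20 alternative settings. Mthfd2 shares 2799 bases with Gm43890 on the same strand, which held up to 8.19% of the Mthfd2 count of a library.

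Replicates 1 and 2 were both above replicates 3 and 4 for 8 of the 10 genes in HFD, where 27.0% of all genes tested had that order, and for 8 of the 10 in CD, where 35.5% did. The order held under both diets for 6 genes, Psat1, Psph, Shmt2, Mthfd2, Asns and Trib3, where 15.2% of all genes had it. Averaged on the log2 scale, replicates 1 and 2 exceeded replicates 3 and 4 by 2.69-fold for Psat1 in HFD and by 1.93-fold in CD, and for Shmt2 by 2.00-fold in HFD and 2.42-fold in CD. The labels do not say what the replicate numbers stand for. The stromal markers Col1a1, Col1a2, Col3a1, Dcn and Pdgfrb had the same order under both diets. The endothelial markers Pecam1, Cdh5, Kdr, Stab2 and Lyve1 had the reverse order in HFD, Pecam1 at 5.28, 4.52, 7.4 and 7.65 CPM in replicates 1 to 4. The summed level over these 10 markers, none at 0, was 692, 688, 235 and 164 CPM in HFD replicates 1 to 4, against 297, 282, 51.6 and 51.6 CPM in CD replicates 1 to 4. Most of it in HFD replicate 1 was Col3a1, Dcn and Col1a1, at 356, 176 and 133 CPM. The summed level of 17 cell cycle genes, none at 0, was split by replicate number in CD but not in HFD. It was 382, 346, 419 and 362 CPM in HFD replicates 1 to 4, against 363, 370, 137 and 132 CPM in CD replicates 1 to 4. Single genes were split in HFD too, in opposite directions. Mcm2, Mcm5, Rrm2, Tk1 and Cdk1 were higher in HFD replicates 1 and 2, Mcm2 at 32.3, 15.6, 7.62 and 6.82 CPM in HFD replicates 1 to 4. Birc5, Aurkb, Cenpa, Prc1, Ccna2 and Kif11 were lower there, Birc5 at 37.4, 33.9, 51.7 and 56.2 CPM. The part of either list in these differences was not tested.

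**Figure D3:**
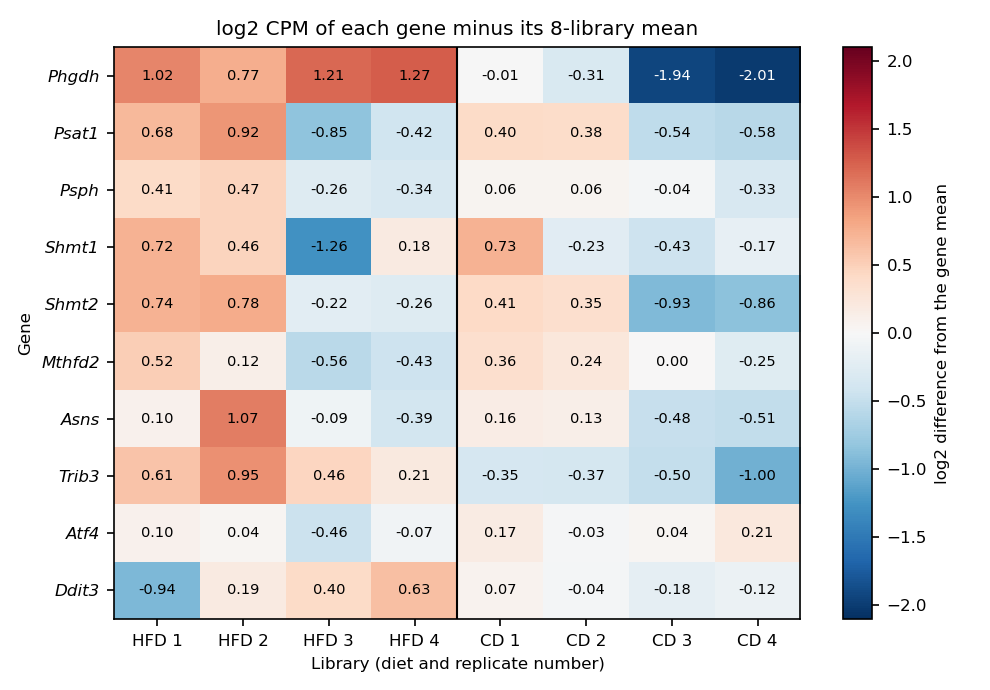
log2 CPM of each gene minus its mean over the 8 libraries, with genes in rows and HFD then CD libraries in columns. Phgdh runs from 0.77 to 1.27 in HFD and down to -2.01 in CD replicate 4, Psat1 and Shmt2 are above their means in replicates 1 and 2 of both diets, and Atf4 stays within -0.46 and 0.21.

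Atf4 (ENSMUSG00000042406, chromosome 15, 80255184 to 80257541, plus strand) was among the most even of these transcripts. It was at 96.9, 93.3, 66.1 and 86.0 CPM in HFD replicates 1 to 4, against 101.6, 89.0, 92.9 and 105.0 CPM in CD replicates 1 to 4. HFD replicate 3 was the lowest library, and the diets overlapped. Its log2 fold change was -0.18 ± 0.24 (SE), turning to 0.30 when only library size was used for scaling, a setting in which the median of all genes tested was 0.42.

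Trib3 (ENSMUSG00000032715, chromosome 2, 152337422 to 152344032, minus strand), the ATF4-induced pseudokinase gene, was at 11.97, 15.2, 10.8 and 9.09 CPM in HFD replicates 1 to 4, against 6.16, 6.08, 5.58 and 3.93 CPM in CD replicates 1 to 4. The lowest HFD library was above the highest CD library. Trib3 averaged 11.8 ± 2.59 CPM in HFD and 5.44 ± 1.04 CPM in CD (SD, n = 4 each), a log2 fold change of 1.11 ± 0.26 (SE, edgeR). On the sides of the replicate numbers the log2 fold change was 1.16 ± 0.24 (SE) among replicates 1 and 2 and 1.15 ± 0.28 (SE) among replicates 3 and 4. Without CD replicates 3 and 4 it was 0.94 ± 0.31 (SE). The ratio of Trib3 to Atf4 FPKM within a library ran from 0.117 to 0.181 in HFD and from 0.0410 to 0.0756 in CD, with no overlap.

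Asns (ENSMUSG00000029752, chromosome 6, 7675169 to 7693254, minus strand), which encodes asparagine synthetase, was at 34.7, 68.3, 30.6 and 24.8 CPM in HFD replicates 1 to 4, against 36.3, 35.4, 23.3 and 22.7 CPM in CD replicates 1 to 4. HFD replicate 2 was high, the other HFD libraries lay within the CD range, and the diets overlapped. The log2 fold change was 0.43 ± 0.35 (SE), and it was 0.05 without HFD replicate 2. The gene holds the element core in its window as Trib3 does, whose diets did not overlap.

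Ddit3 (ENSMUSG00000025408, chromosome 10, 127290774 to 127296288, plus strand), which encodes the stress factor CHOP, was at 34.6, 75.9, 87.8 and 102.9 CPM in HFD replicates 1 to 4, against 70.0, 64.9, 58.7 and 61.2 CPM in CD replicates 1 to 4. HFD replicate 1 was the lowest of the 8 libraries and the other HFD libraries were the highest. The log2 fold change was 0.24 ± 0.33 (SE) over all libraries, with -0.29 ± 0.41 (SE) among replicates 1 and 2 and 0.75 ± 0.19 (SE) among replicates 3 and 4. These values are a description with no test of the difference between the sides. A second identifier with the symbol Ddit3 held 1 count in each library and was not tested. Ddit3 also overlaps 68 bases of Mars1 on the other strand, which held up to 53.0% of the Ddit3 count of a library.

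By FPKM, the levels in HFD fell in the order Ddit3 (34.99 to 45.1), Atf4 (22.6 to 71.2), Phgdh (21.5 to 50.2) and Asns (5.65 to 25.4), whose neighbouring ranges overlapped. Below them came Shmt2, Mthfd2, Trib3, Psat1 and Psph, with means of 7.56, 6.599, 5.95, 4.77 and 2.89 FPKM and overlapping ranges, and then Shmt1 at 0.634 FPKM. In CD the order was Atf4, Ddit3, Asns, Phgdh, Mthfd2, Shmt2, Psat1, Trib3, Psph and Shmt1. Phgdh averaged 30.8 ± 13.1 FPKM in HFD and 6.99 ± 5.47 FPKM in CD (SD, n = 4 each). FPKM carry no TMM scaling, and HFD replicate 1 had the highest FPKM of the 8 libraries for 8 of the 10 genes.

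The wider pathway was described with 10 lists that leave out the 10 genes above and hold 143 distinct genes, 136 of them tested. In edgeR 0 of these passed in either direction, with 13 higher and 5 lower at an unadjusted p under 0.05. That was 9.56% and 3.68% of them, where 5.31% and 7.56% of all genes were higher and lower at that p. DESeq2 called 2, Eif2ak2 and Slc7a11, both lower, where it called 2.86% of all genes lower. The diets separated with HFD above for 6.62% of the wider genes and with HFD below for 0.735%, beside 3.57% and 4.80% of all genes. Their median log2 fold change was 0.26. Every adjusted p of the genes named below came from edgeR over all genes tested and missed the threshold.

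Among the 10 pathway lists, enzymes of amino acid metabolism that ATF4 induces had the highest median, 0.67. Of its 11 tested genes 10 were above 0 and 3 were higher at an unadjusted p under 0.05. The cell type and cell cycle marker lists had medians from -2.56 for neutrophils to 0.87 for cell cycle genes. The macrophage and sort markers, at 0.74, also stood above this list. Pck2, the mitochondrial phosphoenolpyruvate carboxykinase gene, was at 8.39, 8.62, 14.5 and 9.12 CPM in HFD replicates 1 to 4, against 6.22, 5.52, 5.48 and 4.26 CPM in CD replicates 1 to 4 (log2 fold change 0.92 ± 0.27, adjusted p = 0.264). Gpt2, a mitochondrial alanine aminotransferase gene, averaged 7.45 ± 1.62 CPM in HFD and 4.48 ± 0.349 CPM in CD (SD, n = 4 each; adjusted p = 0.299). The diets did not overlap for either gene. Aldh1l2, a mitochondrial formyl-folate dehydrogenase gene, averaged 4.07 ± 2.33 CPM in HFD and 1.49 ± 0.546 CPM in CD (SD, n = 4 each; adjusted p = 0.293), and its diets overlapped.

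Other ATF4 and CHOP stress targets had a median of 0.28, with 18 of 24 above 0, 5 higher and 1 lower at an unadjusted p under 0.05. Cebpg, a dimer partner of ATF4, was at 38.2, 19.8, 41.0 and 33.1 CPM in HFD replicates 1 to 4, against 11.7, 19.7, 18 and 17.2 CPM in CD replicates 1 to 4 (adjusted p = 0.264). HFD replicate 2 exceeded CD replicate 2 by little, and the diets did not overlap. Lonp1, the mitochondrial matrix protease gene, averaged 14.0 ± 2.52 CPM in HFD and 7.50 ± 2.75 CPM in CD (SD, n = 4 each; adjusted p = 0.297). Eif4ebp1, a translation repressor gene that ATF4 induces, averaged 411 ± 108 CPM in HFD and 221 ± 41.1 CPM in CD (SD, n = 4 each; adjusted p = 0.312). Among regulators and basic leucine zipper partners of ATF4 the median was 0.23 with 8 of 14 above 0, and beside Cebpg the smallest p values were those of Trib2, at 0.23 ± 0.132 CPM in HFD and 0.936 ± 0.83 CPM in CD, and Cebpa, at 16.1 ± 11.1 CPM in HFD and 8.97 ± 2.84 CPM in CD (SD, n = 4 each; adjusted p = 0.343 and 0.482).

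The tRNA synthetases that ATF4 induces had a median of 0.39, with 9 of 12 above 0 and 1 higher at an unadjusted p under 0.05, and the other cytosolic synthetases a median of 0.27, with 7 of 8 above 0 and 0 at that p. The seryl-tRNA synthetase gene Sars was at 75.1, 82.9, 71.9 and 68.8 CPM in HFD replicates 1 to 4, against 62.7, 54.8, 31.8 and 29.9 CPM in CD replicates 1 to 4 (adjusted p = 0.348). The asparaginyl-tRNA synthetase gene Nars averaged 168 ± 20.0 CPM in HFD and 114 ± 22.0 CPM in CD (SD, n = 4 each; adjusted p = 0.41). Diets did not overlap for either. Eprs averaged 83.2 ± 36.2 CPM in HFD and 49.7 ± 16.2 CPM in CD (SD, n = 4 each; adjusted p = 0.434). In the other list Dars, for aspartate, averaged 17.2 ± 1.69 CPM in HFD and 12.6 ± 1.85 CPM in CD, Vars, for valine, 21 ± 5.22 CPM in HFD and 12.3 ± 8.26 CPM in CD, and Qars, for glutamine, 11.4 ± 4.23 CPM in HFD and 9.50 ± 1.6 CPM in CD (SD, n = 4 each; adjusted p = 0.416 to 0.72).

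Amino acid transporters that respond to ATF4 had a median of 0.07, with 8 of 11 above 0 and 1 lower at an unadjusted p under 0.05. That one was Slc7a11, the cystine-glutamate exchanger gene, at 98, 23.7, 15.0 and 26.7 CPM in HFD replicates 1 to 4, against 29.4, 32.4, 547 and 552 CPM in CD replicates 1 to 4 (log2 fold change -2.83 ± 1.03, adjusted p = 0.313). The difference lay in CD replicates 3 and 4, the libraries with the high neutrophil marker sums, and the part of those markers was not tested. Slc38a2, a neutral amino acid transporter gene, averaged 53.6 ± 9.80 CPM in HFD and 80.6 ± 23.9 CPM in CD, and Slc43a2 44.0 ± 31.1 CPM in HFD and 17.0 ± 12.8 CPM in CD (SD, n = 4 each; adjusted p = 0.419 and 0.44).

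Upstream of ATF4, the eIF2 kinases and their partners had a median of 0.06, with 10 of 20 above 0 and 1 lower at an unadjusted p under 0.05. Eif2ak2, which encodes the interferon-inducible kinase PKR, was at 6.03, 7.66, 8.47 and 9.84 CPM in HFD replicates 1 to 4, against 10.8, 11.7, 35.5 and 37.6 CPM in CD replicates 1 to 4 (log2 fold change -1.58 ± 0.44, adjusted p = 0.259). It was the only wider gene lower in every HFD library. Ppp1r15a, which encodes the phosphatase subunit GADD34, averaged 188 ± 134 CPM in HFD and 372 ± 106 CPM in CD, and Dele1, which relays mitochondrial stress to eIF2 kinases in human cells, 2.05 ± 0.376 CPM in HFD and 1.34 ± 0.284 CPM in CD (SD, n = 4 each; adjusted p = 0.416 and 0.464).

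Other folate enzymes and carriers had a median of 0.25, with 15 of 22 above 0, and Aldh1l2 and Folr2 were higher at an unadjusted p under 0.05. Folr2, the folate receptor beta gene of tissue macrophages, was at 35.8, 27.9, 52.1 and 63.2 CPM in HFD replicates 1 to 4, against 29.4, 27.9, 8.13 and 7.53 CPM in CD replicates 1 to 4 (adjusted p = 0.324). Folr2 was low in CD replicates 3 and 4 as Phgdh was, but its other CD libraries reached the HFD range. Mthfd1l, which releases formate from mitochondria, averaged 9.54 ± 1.73 CPM in HFD and 6.08 ± 2.18 CPM in CD (SD, n = 4 each; adjusted p = 0.389). Other serine and glycine genes had a median of 0.34 with 11 of 15 above 0, 2 higher and 1 lower at an unadjusted p under 0.05. Slc25a39, a mitochondrial glutathione carrier gene, averaged 83.6 ± 33.0 CPM in HFD and 45.7 ± 13.8 CPM in CD, the serine racemase gene Srr 3.04 ± 0.442 CPM in HFD and 1.85 ± 0.441 CPM in CD, and Gnmt, the glycine methyltransferase gene of hepatocytes, 0.139 ± 0.124 CPM in HFD and 0.809 ± 0.411 CPM in CD (SD, n = 4 each; adjusted p = 0.34 to 0.374). The summed level of 20 hepatocyte markers, of which Tat, Cps1, Otc, Cyp2e1 and Pck1 were below 1 CPM in every library, was 184, 152, 154 and 260 CPM in HFD replicates 1 to 4, against 211, 193, 953 and 901 CPM in CD replicates 1 to 4. Most of it was Hp in all 8 libraries, at 102 to 186 CPM in HFD, and at 811 and 765 CPM in CD replicates 3 and 4. Those were also the libraries with the high neutrophil marker sums. Without Hp the sum was 33.5, 47.1, 51.6 and 74.0 CPM in HFD replicates 1 to 4, against 95.0, 86.6, 143 and 136 CPM in CD replicates 1 to 4, so that the diets did not overlap. Of the 20 markers 8 were lower in all HFD libraries, and 10 of the 17 tested were lower at an unadjusted p under 0.05. The part of these markers in the values of Gnmt was not tested.

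Enzymes that use serine for membrane lipids had a median of 0.14 with 7 of 9 above 0 and 1 higher at an unadjusted p under 0.05. Sptssa, a small subunit of serine palmitoyltransferase, averaged 29.7 ± 7.48 CPM in HFD and 15.2 ± 6.63 CPM in CD, Serinc3 650 ± 482 CPM in HFD and 328 ± 61.9 CPM in CD, and the phosphatidylserine synthase gene Ptdss2 6.82 ± 0.736 CPM in HFD and 5.23 ± 1.71 CPM in CD (SD, n = 4 each; adjusted p = 0.312 to 0.584).

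**Figure D4:**
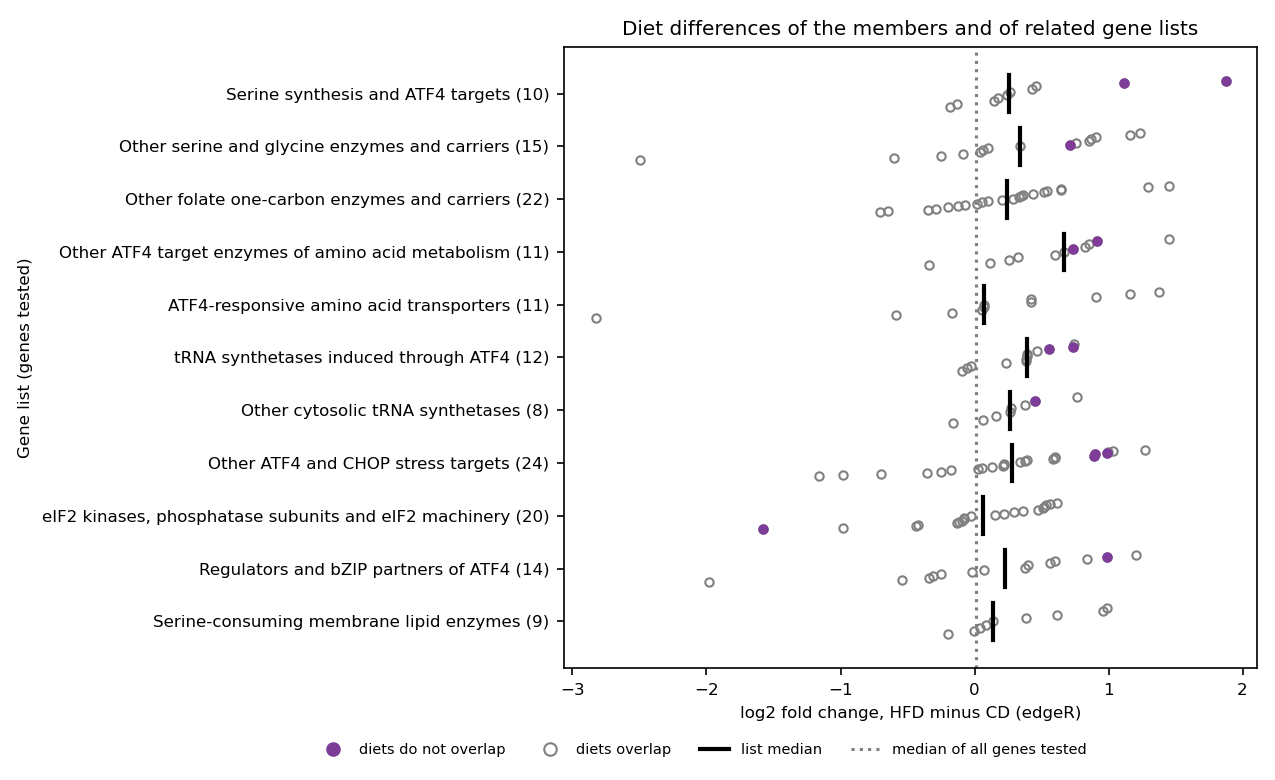
log2 fold change, HFD minus CD, of each tested gene (points) of the 10 genes in the top row and of the 10 related lists, with the number tested in brackets. Thick bars are list medians, from 0.06 to 0.67, the dotted line is the median of all genes tested at 0.01, and filled points are genes whose diets do not overlap.

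The transcripts nearest to Phgdh in pattern were sought among 7255 named genes with a mean of at least 5 CPM, by the mean absolute difference of centred log2 CPM over the 8 libraries. They were Tgfb3 (0.18), a TGF-beta ligand gene, Thbs2 (0.20), a matrix thrombospondin gene, Cox6a2 (0.27), a respiratory chain subunit gene, Cd63 (0.27), a lysosomal tetraspanin gene, and Fcgrt (0.28), which encodes the neonatal Fc receptor chain. Tgfb3 was at 47.5, 41.4, 55.5 and 41.9 CPM in HFD replicates 1 to 4, against 19.5, 22.4, 4.68 and 5.24 CPM in CD replicates 1 to 4. Psat1, Psph and Shmt2 were not among the 5, from which nothing is read, since only 5 of the 7255 genes were named. Shmt1 fell below the limit of 5 CPM and was not compared. Nearest to Atf4 were Eif1ax (0.05), a translation initiation factor gene, Ppp2ca (0.08), a protein phosphatase catalytic subunit gene, Lpcat2 (0.08), a phospholipid acyltransferase gene, Gpr108 (0.09) and Derl1 (0.09), a gene of protein export from the endoplasmic reticulum.

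**Figure D5:**
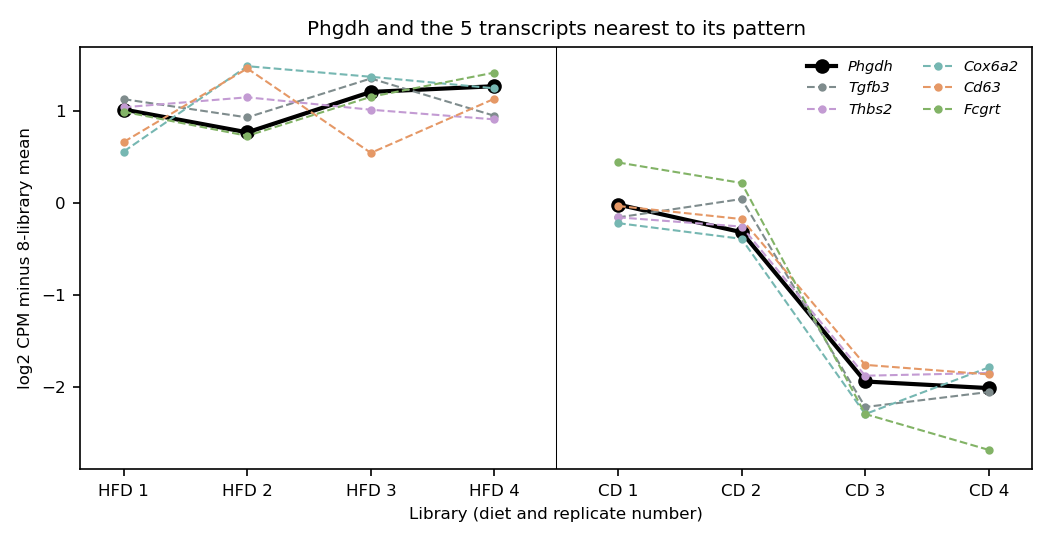
log2 CPM minus the 8-library mean of Phgdh (thick line) and of the 5 transcripts nearest to it (dashed), by library. All 6 transcripts are above 0 in the 4 HFD libraries and lowest in CD replicates 3 and 4.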

How the data were processed

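The deposited table held raw counts per gene and FPKM per gene for 8 libraries of SMARTer cDNA. Per the submitters' processing notes cutadapt 1.9, HISAT2 2.0.4 and StringTie 1.3.4d were named, and no source used here states the genome build. The counts were deposited without normalisation and the FPKM were scaled by the authors, per the file headers. Of 42649 identifiers, 37405 had the same position in GENCODE M21 (GRCm38), as did 8 of the 10 genes, and positions are the table's own.

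Counts were tested with edgeR 4.0.16 in R 4.3.3 (filterByExpr, TMM, two-sided quasi-likelihood test with a term for diet alone), with Benjamini-Hochberg adjustment over 17367 genes and a threshold of 0.05. Log2 fold changes are HFD minus CD. Alternatives used DESeq2 1.42.0 and limma 3.58.1, with limma on log2(FPKM + 1) and log2(FPKM + 0.1). The genes and lists were chosen with earlier results of these data known. All 10 genes were named, and from each list up to 4 past the threshold, otherwise the 3 of smallest p. The design names 4 mice per diet but no label ties a library to a mouse, so p-values measure the spread between these libraries. On simulated counts of 16457 genes for this comparison, edgeR called 0% of the genes given a 2-fold change and 7.53% of those given a 4-fold change. PCR copies are not independent molecules.

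Same-number HFD and CD libraries deviated together from their diet means, with correlations over genes of 0.11, 0.292, 0.22 and 0.183. Libraries of unlike number on the same side of the division of 1 and 2 from 3 and 4 correlated at 0.16 to 0.318. For each HFD library that value was higher than the one with the CD library of its own number. The same number is thus not shown to mark a pair. That division was made after the data had been examined, and values on its sides are given as descriptions.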

Additional observations from a re-analysis of the deposited data

Results flagged for a closer look

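The Shmt1 level of CD replicate 1, 3.12 CPM, stood far from the other CD libraries (1.39 to 1.67 CPM). Its gap to the next library was 0.838 of the range of the group, above the critical value of 0.829 for 4 values. It was the only one of 20 groups of 4 examined, and chance flags about 1 such group in 20.

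The diet difference of Phgdh was 2.16 higher on the log2 scale among replicates 3 and 4 than among replicates 1 and 2, with 2 libraries per diet on each side. The gene and the division were both picked after these values had been seen, so no p is given and the difference has no independent test. Each HFD library lay above each CD library, so HFD is higher under any pairing of them. Between libraries of the same number the differences of log2 CPM were 1.03, 1.08, 3.15 and 3.28.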

How the results depend on the processing

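Phgdh, Trib3 and Asns kept a positive log2 fold change in all 20 alternative settings, with ranges of 1.06 to 3.30, 0.94 to 1.56 and 0.05 to 0.84. The sign turned in 2 settings for Psat1, 1 for Psph, 2 for Shmt1, 1 for Shmt2, 8 for Mthfd2, 5 for Atf4 and 1 for Ddit3. Leaving out 1 library at a time gave 1.63 to 2.29 for Phgdh and 0.99 to 1.25 for Trib3, with 0 of the 10 genes past the threshold in edgeR. Past it stood Phgdh and Trib3 with DESeq2 and with the term for replicate numbers, Phgdh with no filter, and Phgdh, Trib3, Shmt2 and Ddit3 among replicates 3 and 4.

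Over all genes edgeR called 0 higher and 1 lower. The counts of higher and lower genes were 143 and 496 with the DESeq2 Wald test, 119 and 296 with no filter on low counts, 1 and 4 with limma on log2(FPKM + 0.1), 179 and 177 with the term for replicate numbers 1 and 2 against 3 and 4, and 2314 and 3310 within replicates 3 and 4. The lower count was 0 with library size only, with limma on log2(FPKM + 1) with or without a filter, with the replicate block, within replicates 1 and 2 and with CD replicates 3 and 4 left out. With 1 library left out the lower count ran from 0 to 1. Of the 136 wider pathway genes 0 were called in the main setting. Called were 2 with DESeq2 (0 higher and 2 lower, 1.47% lower beside 2.86% of all genes), 1 with no filter (lower, 0.735% beside 0.694%) and 2 with the term for replicate numbers (1 higher and 1 lower, 0.735% each beside 1.03% and 1.02%). Within replicates 3 and 4, 37 were called, 28 higher and 9 lower, which was 20.6% and 6.62% beside 11.5% and 16.5% of all genes. With the replicate block Phgdh had a log2 fold change of 2.13 and Trib3 of 1.11, and neither was called. The cause of these shifts was not tested. On simulated counts of 16457 genes, edgeR over all 8 libraries recovered 0% of the 2-fold changes given to 96 genes. It recovered 7.53% of the 4-fold changes given to 93 genes. Each share is an average over genes of many levels and spreads with few genes changed, and is not the share for a given gene. A missed threshold in edgeR over all 8 libraries thus says little about differences of 4-fold or below, which takes in all 10 genes, Phgdh among them.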
